A study of Homo sapiens with 8 samples.

Results

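Entry into mitosis is run by cyclin-dependent kinase 1 (CDK1) with its cyclin partners, by the kinases PLK1 and AURKA, and by the phosphatase CDC25C, and their genes are transcribed in a wave in G2 that depends on FOXM1. The genes CCNA2, CCNB1, CCNB2, CDK1, CDC25C, PLK1, AURKA, CDC20, FOXM1 and MKI67 were followed here as a set of 10 among the 26475 gene symbols of the count table. They were taken by symbol and all 10 were measured well enough to be tested, among 14008 tested genes. The cells were BT474, a human breast tumour line with amplified ERBB2, and RNA-seq libraries of 4 samples labelled NPY1R high and 4 labelled NPY1R low were compared. NPY1R encodes the neuropeptide Y receptor Y1. The labels give this difference under genotype, name no drug, construct or time for either group, and do not say how the cells of the 2 groups were obtained or whether the 4 replicates of a group were separate cultures, so the p-values measure the spread between these samples, which may be technical. The series title places the samples in a study of cells that persist under lapatinib, an inhibitor of EGFR and ERBB2, and the comparison asks which genes differ between NPY1R high and NPY1R low cells.

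Cyclin A2 acts in S phase and G2, and cyclins B1 and B2 bind CDK1 to drive the cell into mitosis. The kinases WEE1 and PKMYT1 hold CDK1 inactive until CDC25 phosphatases remove their phosphate marks, and PLK1, itself switched on by AURKA with its cofactor BORA, helps to tip this balance. CDC20 then activates the anaphase-promoting complex (APC/C), which marks cyclin B for destruction. In resting and G1 cells the DREAM complex represses many of these genes, often through a promoter element called CHR, and in G2 the MuvB core of that complex works with MYBL2 and FOXM1 to activate them. MKI67 encodes the Ki-67 protein that coats mitotic chromosomes and serves in breast pathology as a marker of cycling cells.

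Promoter sequences of the genes are shown first because the DREAM and MuvB complexes meet their targets there. RefSeq promoter windows (GRCh38.p14, 250 bases before to 50 after a transcription start) were at hand for 8 of the 10 genes, in 12 windows, and not for AURKA or FOXM1. The CHR was searched as TTTGAA or TTCGAA and the CCAAT box, where the factor NF-Y binds, as CCAAT, each on both strands, and the 2 motifs could overlap by a few bases. A CHR match was present in a window of 6 of the 8 genes (CCNB2, CDC20, CDC25C, CDK1, MKI67 and PLK1), against 19.5% of the 27305 genes with a window. A CCAAT match was present for 8 of 8, against 39.7% of genes, and both matches in the same window for 6 of 8, against 7.85%. The forkhead core TGTTTA, searched on both strands, was found for 1 of 8 genes (CDK1), against 14.7% of genes. Among the 10248 tested genes with a window the shares were 15.5% for the CHR and 43.2% for CCAAT. They were 6.59% for both and 10.4% for the forkhead core. A match in any window of a gene was counted, and some windows of CDC25C held none. A match is a run of letters and not a shown binding site.

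Of 6 of these genes, 120 bases before and 20 after the start are printed, 5′ to 3′ on the strand of the gene, to set the CDK1 promoter beside those of genes with larger differences. Capitals mark CHR and CCAAT matches on either strand, and for CDK1 the downstream of its starts was used.
CCNB2, chr15:59105026-59105165, plus strand: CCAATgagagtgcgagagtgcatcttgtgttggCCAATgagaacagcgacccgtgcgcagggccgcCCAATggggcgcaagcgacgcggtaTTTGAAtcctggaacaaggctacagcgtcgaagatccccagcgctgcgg
CCNB1, chr5:69167030-69167169, plus strand: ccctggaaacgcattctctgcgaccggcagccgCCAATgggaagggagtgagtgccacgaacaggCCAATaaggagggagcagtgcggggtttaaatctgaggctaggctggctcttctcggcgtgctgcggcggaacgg
CDC20, chr1:43358861-43359000, plus strand: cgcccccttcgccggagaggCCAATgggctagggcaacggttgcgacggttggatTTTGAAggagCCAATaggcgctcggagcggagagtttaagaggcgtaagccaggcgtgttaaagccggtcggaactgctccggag
PLK1, chr16:23678769-23678908, plus strand: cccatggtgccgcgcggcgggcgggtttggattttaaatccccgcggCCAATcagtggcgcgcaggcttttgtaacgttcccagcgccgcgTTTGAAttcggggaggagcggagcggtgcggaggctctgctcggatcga
MKI67, chr10:128126404-128126543, minus strand: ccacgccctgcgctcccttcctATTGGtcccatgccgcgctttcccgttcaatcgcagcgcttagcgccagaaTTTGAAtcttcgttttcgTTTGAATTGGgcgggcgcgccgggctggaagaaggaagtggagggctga
CDK1, chr10:60778358-60778497, plus strand: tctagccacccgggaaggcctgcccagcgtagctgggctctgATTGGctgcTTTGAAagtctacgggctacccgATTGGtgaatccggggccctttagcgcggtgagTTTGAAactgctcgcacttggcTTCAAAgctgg
In CCNB2, PLK1 and MKI67 a CHR match began 29 bases before the start. The CDK1 stretch held 3 CHR matches and 2 CCAAT matches, while the CCNB1 window held 2 CCAAT matches and no match to the CHR letters searched.

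Library totals ranged from 18025648 to 30609791 expected counts (estimated reads per gene, which need not be whole). NPY1R itself was 8.96-fold higher in the libraries labelled NPY1R high, at 699 to 1049 CPM (counts scaled to library size, here with TMM factors) against 90.8 to 104 CPM, and edgeR's quasi-likelihood test gave an adjusted p of 1.14e-06. At a Benjamini-Hochberg adjusted p under 0.05, 1094 genes were lower (7.81% of those tested) and 810 higher (5.78%), so 42.5% of calls were higher. That split moved to 56.3% higher with upper-quartile factors and 54.0% with library totals. It also depended on the TMM reference, the library that TMM scales against, which was NPY1R low replicate 4 in the main fit. The 7 alternative TMM references gave 865 to 892 lower genes, and 49.5% to 53.1% of calls were higher. The 7.81% called lower, used below as background, is thus the share under the main reference. The luminal epithelial markers KRT8, KRT18, KRT19, EPCAM, CDH1, GATA3 and ERBB2 were all expressed, summing to 7080 to 8150 CPM in NPY1R high and 6960 to 9210 in NPY1R low. Markers of fibroblasts, basal, immune and endothelial cells summed to at most 18.2 CPM per list in any library. Of these, COL1A2, DCN, PDGFRB, KRT14 and CD3E had 0 counts in all 8 libraries, and the ranges of NPY1R high and NPY1R low overlapped for each of the 4 lists.

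All 10 mitotic entry genes were lower in NPY1R high cells and all 10 passed the threshold, where 7.81% of all tested genes were called lower. The differences ran from 1.25-fold for CDK1 to 2.19-fold for CCNB2, with a median log2 difference of -0.94 beside -0.03 over all tested genes. For each of the 10, every NPY1R high library lay below every NPY1R low library, which held for 11.4% of tested genes. The genes were proposed with these results in view, so the counts describe them and are not a separate test of the set. In bulk RNA, fewer cells in G2 and mitosis and less of these RNAs per cell cannot be told apart. CDK1 stood apart from the other 9. Its call was lost in 20 of 26 other fits and when the main fit was read at an adjusted p under 0.01, together 21 of 27 alternatives. The other 9 were called in all 27.

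**Figure D1:**
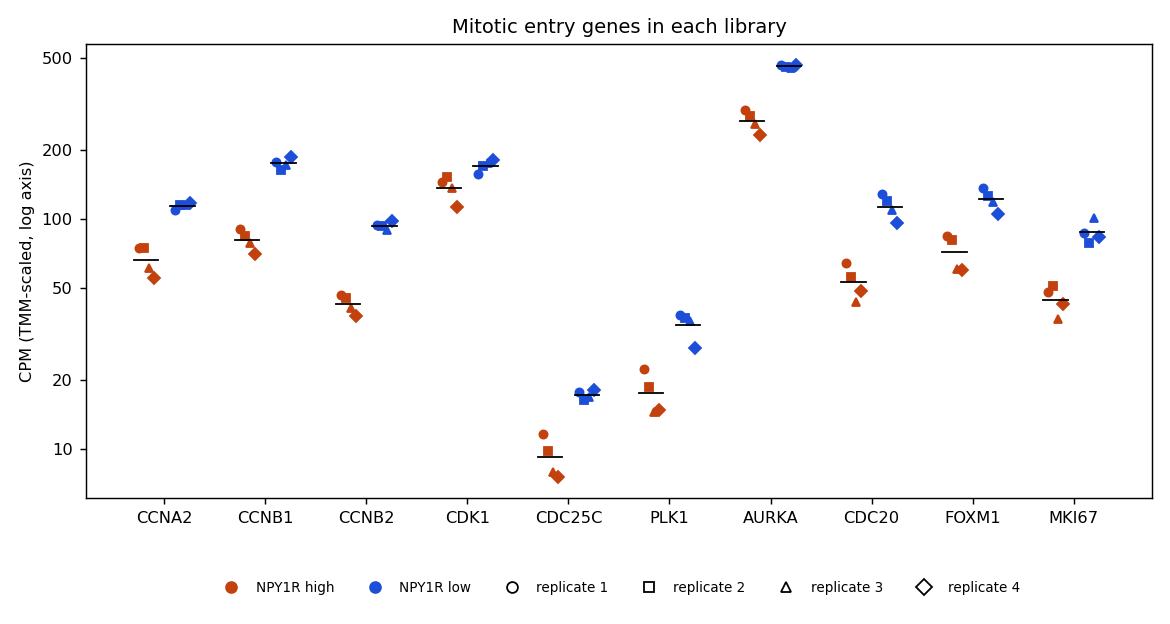
Each point is 1 library's level of a gene in TMM-scaled CPM on a log axis, coloured by group and shaped by replicate number, with a black bar at the mean of the 4 libraries. The groups do not overlap for any of the 10 genes, and the gap is narrowest for CDK1, where the highest NPY1R high library has 152 CPM and the lowest NPY1R low library 156.

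The cyclins are the subunits that switch CDK1 on and choose its substrates. CCNB2 (chr15:59105078-59125045, plus strand, GENCODE release 29 on GRCh38) had 46.5, 45.1, 41.1 and 38.1 CPM in NPY1R high replicates 1 to 4, and 93.8, 92.9, 89.1 and 98.2 CPM in NPY1R low replicates 1 to 4. The NPY1R low libraries lay close together, and the groups were 0.94 apart on the log2 scale at their nearest libraries. Its log2 difference was -1.13 (SE 0.07), and edgeR's quasi-likelihood test gave an adjusted p of 1.03e-05. CCNB1 (chr5:69167010-69178245, plus strand) had 90.5, 84.4, 78.7 and 70.7 CPM in NPY1R high and 177, 163, 172 and 186 CPM in NPY1R low, in replicate order. The 2 B-type cyclins thus differed by similar amounts, with -1.10 (SE 0.08) for CCNB1 and an adjusted p of 1.85e-05. For CCNA2 (chr4:121816444-121823933, minus strand), which acts from S phase onward, the levels were 74.6, 74.5, 61.4 and 55.4 CPM in NPY1R high and 109, 115, 115 and 117 CPM in NPY1R low. NPY1R low libraries varied little for this gene (coefficient of variation 2.98%), and NPY1R high libraries more (14.5%). The log2 difference of CCNA2 was -0.78 (SE 0.09), with an adjusted p of 0.000446.

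CDK1 (chr10:60778331-60794852, plus strand), the kinase itself, had the smallest difference. Its levels were 145, 152, 136 and 113 CPM in NPY1R high and 156, 170, 176 and 181 CPM in NPY1R low. Only 0.04 on the log2 scale separated the groups at their nearest libraries. The log2 difference was -0.32 (SE 0.09), and edgeR's quasi-likelihood test gave an adjusted p of 0.0398. When 1 library was left out, 7 of 8 fits lost the call, all but the fit without NPY1R high replicate 2, with log2 differences from -0.38 to -0.20 and adjusted p up to 0.117. With each of the 7 other libraries as TMM reference the call was also lost. Its direction was the same in all 27 alternatives.

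CDC25C (chr5:138285265-138338355, minus strand), a phosphatase that removes the inhibitory marks from CDK1, was the least abundant of the set in CPM. It had 11.6, 9.78, 7.96 and 7.54 CPM in NPY1R high and 17.7, 16.4, 16.9 and 18.03 CPM in NPY1R low. These levels rest on 137 to 337 counts per NPY1R high library and 369 to 528 per NPY1R low library. NPY1R low libraries were again tight, and the log2 difference was -0.90 (SE 0.14), and edgeR's quasi-likelihood test gave an adjusted p of 0.00172.

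The mitotic kinases differed by unequal amounts. PLK1 (chr16:23677656-23690367, plus strand), which acts from mitotic entry to cytokinesis, had 22.3, 18.6, 14.5 and 14.8 CPM in NPY1R high and 38.2, 37.1, 36.1 and 27.5 CPM in NPY1R low. NPY1R low replicate 4 was the low library of its group and still lay above all NPY1R high libraries. The log2 difference of PLK1 was -0.98 (SE 0.16, the largest error of the 10), and edgeR's quasi-likelihood test gave an adjusted p of 0.00221. AURKA (chr20:56369389-56392337, minus strand), which matures the centrosomes and activates PLK1, had 298, 279, 258 and 232 CPM in NPY1R high against 468, 457, 453 and 467 CPM in NPY1R low. Its NPY1R low libraries were the most even of the set, with a coefficient of variation of 1.65%. The log2 difference was -0.79 (SE 0.07), with an adjusted p of 9.43e-05.

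CDC20 (chr1:43358955-43363203, plus strand), the mitotic activator of the APC/C, had 64.2, 55.9, 43.6 and 48.7 CPM in NPY1R high and 128, 119, 109 and 95.8 CPM in NPY1R low. The lowest NPY1R low library was again replicate 4. The log2 difference of CDC20 was -1.09 (SE 0.13), and edgeR's quasi-likelihood test gave an adjusted p of 0.000351. FOXM1 (chr12:2857681-2877155, minus strand), the transcription factor of the set, had 84.2, 81.3, 60.4 and 60.0 CPM in NPY1R high and 137, 126, 119 and 105 CPM in NPY1R low, a log2 difference of -0.77 (SE 0.13) with an adjusted p of 0.00296. Within NPY1R high, replicates 1 and 2 were above replicates 3 and 4. MKI67 (chr10:128096659-128126385, minus strand) had 48.1, 50.9, 36.7 and 42.6 CPM in NPY1R high and 86.8, 78.9, 101 and 83.8 CPM in NPY1R low, and its highest library was NPY1R low replicate 3. Its log2 difference was -0.98 (SE 0.11, adjusted p 0.00032).

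In GENCODE release 29, exons of CCNA2, CDC25C and FOXM1 overlap exons of EXOSC9, FAM53C and ITFG2 on the opposite strand. Exons of PLK1 overlap those of ERN2 and of the antisense gene AC008870.3, also on the opposite strand. The kit was stranded, but how the counting used strand is not given in the sources used here. EXOSC9, FAM53C and ITFG2 each had a log2 difference of 0.05, and adjusted p of 0.816, 0.658 and 0.848 by edgeR's quasi-likelihood test. ERN2 had 0 to 1 counts per library, and AC008870.3 was not examined. The AURKA pseudogene AURKAPS1 had 9 to 29 counts per library, against 4210 to 13947 for AURKA.

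The 10 levels were also compared per kilobase of the principal GENCODE transcript, since longer transcripts give more counts. The order was the same in both groups. AURKA was highest at 119 ± 12.7 CPM per kilobase in NPY1R high and 205 ± 3.38 in NPY1R low (SD, n = 4 each), followed by CDK1 at 71.2 ± 8.89 and 89.1 ± 5.52. CCNB1, CDC20, CCNB2, CCNA2 and FOXM1 came next, from 37.4 down to 20.6 in NPY1R high and from 80.3 down to 35 in NPY1R low. In NPY1R high each neighbouring pair among these 5 overlapped between libraries. PLK1 (7.88 and 15.6), CDC25C (4.33 and 8.10) and MKI67 (3.51 and 6.92) were lowest, and the last 2 overlapped in both groups. CDK1 and CCNB1 lay apart in NPY1R high and overlapped in NPY1R low, where CDK1 was still the higher in all 4 libraries. The transcript lengths are those of GENCODE and may differ from those the authors counted on, most of all for MKI67, whose principal transcript is the longest of the set at 12678 bases.

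**Figure D2:**
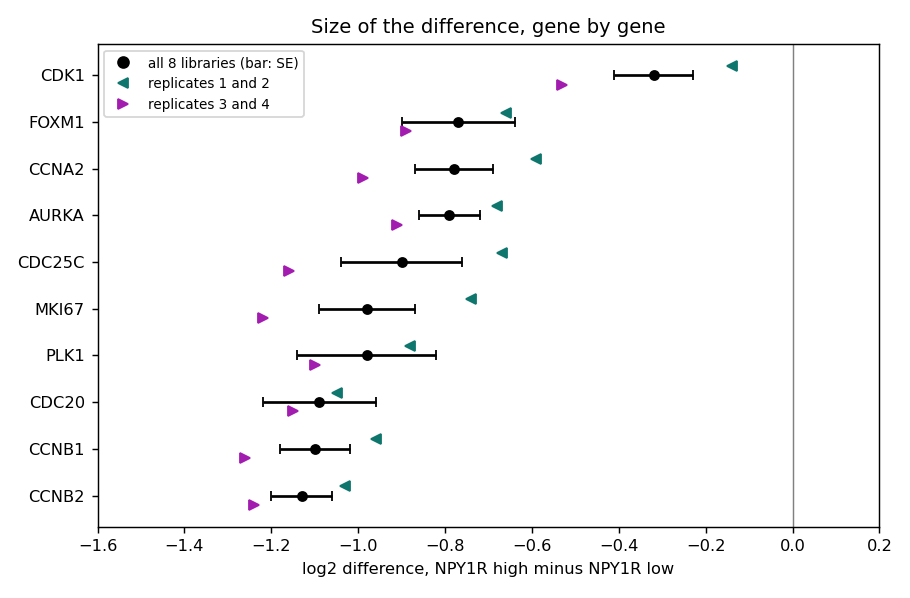
For each gene the black point is the log2 difference in level, NPY1R high minus NPY1R low, with its SE over all 8 libraries, and the triangles are the differences between group means of log2 CPM within replicates 1 and 2 and within replicates 3 and 4. All 10 genes lie below 0 in each, and all 10 differ more in replicates 3 and 4 than in replicates 1 and 2.

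Libraries also differed within the groups, and in NPY1R high the genes moved together. The 10 genes summed to 885, 851, 739 and 682 CPM in NPY1R high replicates 1 to 4, and to 1411, 1375, 1386 and 1379 CPM in NPY1R low. The NPY1R low sums were thus nearly level while the NPY1R high sums spread more widely. Single genes did not move together in NPY1R low, where replicate 4 was the highest library for 5 of the 10 genes and the lowest for 3. For 8 of the 10 genes NPY1R high replicate 1 was the highest of its group, and for the other 2, CDK1 and MKI67, it was replicate 2. The lowest was replicate 4 for 7 genes and replicate 3 for 3. NPY1R itself was 699 and 728 CPM in NPY1R high replicates 1 and 2 and 1049 and 950 CPM in replicates 3 and 4. Over replicates 1 and 2 alone the median log2 difference of the 10 genes was -0.71, from -1.05 for CDC20 to -0.14 for CDK1. Over replicates 3 and 4 alone it was -1.12, from -1.26 for CCNB1 to -0.53 for CDK1. The labels give no batch, this division was known from earlier results of these data, and its part in the difference was not tested.

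In NPY1R low, replicate 4, the TMM reference of the main fit, moved with the GC content of the transcripts. The 3 members richest in GC, FOXM1 (54.0%), PLK1 (57.3%) and CDC20 (57.9%), were lowest in that library, at log2 differences of -0.27, -0.43 and -0.31 from the mean of the other 3 NPY1R low libraries. The 5 poorest in GC, CDK1 (35.6%), CCNA2, CCNB1, CCNB2 and CDC25C (46.5%), were highest there, by 0.05 to 0.12. NPY1R low replicate 1 deviated the other way for FOXM1, PLK1 and CDC20, at 0.23, 0.20 and 0.25 from the mean of the other 3. For the 5 poorest in GC its deviation ran from -0.17 for CDK1 to 0.05 for CDC25C. With each library's GC trend removed, the SD of log2 CPM among NPY1R low libraries fell from 0.22 to 0.12 for PLK1 and from 0.18 to 0.07 for CDC20. FOXM1 hardly moved, with a deviation of -0.27 in replicate 4 before and after and an SD of 0.16 and then 0.15. The SD rose from 0.02 to 0.09 for AURKA, 0.04 to 0.1 for CCNA2, 0.06 to 0.08 for CCNB2, 0.06 to 0.07 for CDC25C and 0.15 to 0.17 for MKI67. It fell from 0.08 to 0.07 for CCNB1 and stayed at 0.09 for CDK1. The group differences changed little. PLK1 had a log2 difference of -0.94 and CDC20 of -1.06 after the correction, and CDK1 of -0.33 and edgeR's quasi-likelihood test gave an adjusted p of 0.0252.

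**Figure D3:**
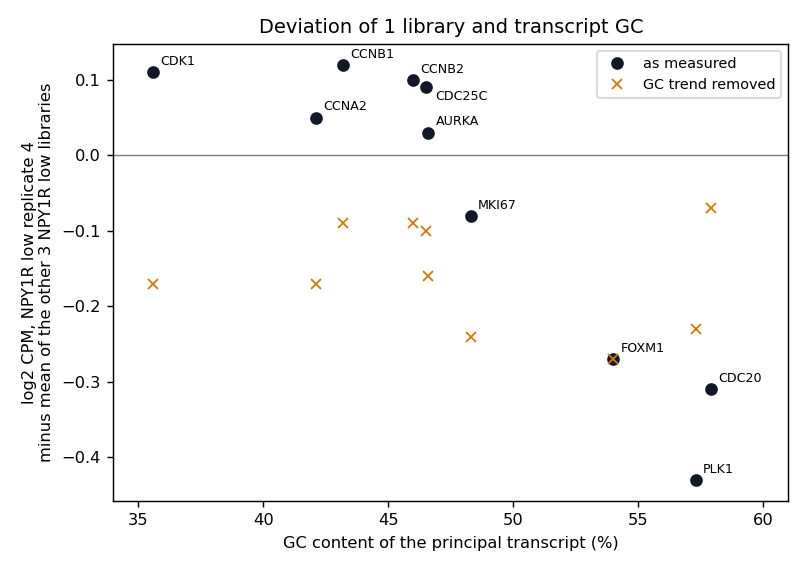
The horizontal axis is the GC content of each gene's principal transcript in percent, and the vertical axis is the log2 CPM of NPY1R low replicate 4 minus the mean of the other 3 NPY1R low libraries, as measured (circles) and after removal of each library's GC trend (crosses). The 3 genes above 50% GC lie from 0.27 to 0.43 below the other libraries as measured, and after the correction all 10 genes lie between -0.27 and -0.07.

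Ratios between genes within a library need no scaling between libraries and show where members changed unequally. Of 6 ratios, 4 differed between the groups at an adjusted p of 0.0429 (exact two-sided permutation tests, Benjamini-Hochberg over the 6 ratios). Each of the 4 had the smallest unadjusted p possible for 4 against 4 libraries, 0.0286. The ratios were chosen with earlier results of these data known, so these p-values describe them and are not a separate test. The log2 ratio of CCNB1 to CCNA2 counts was 0.28, 0.18, 0.36 and 0.35 in NPY1R high and 0.69, 0.50, 0.59 and 0.66 in NPY1R low, so the mitotic cyclin was lower relative to the S and G2 cyclin by 0.32 on the log2 scale, with no overlap. CDC20 to CDK1 was -1.17, -1.44, -1.64 and -1.21 in NPY1R high and -0.29, -0.51, -0.69 and -0.91 in NPY1R low, a difference of -0.77 without overlap. CDK1 was thus lower by a smaller factor than CDC20. The PLK1 to CDK1 ratio differed by -0.66 (-2.97 ± 0.22 against -2.31 ± 0.29, SD, n = 4 each), but the lowest NPY1R low library reached the range of NPY1R high, and the adjusted p was 0.0686 by the exact permutation test. With the GC trend removed the same ratio differed by -0.62 with an adjusted p of 0.0343.

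The other 3 ratios set a member against a partner or a regulator. CDC25C to WEE1, the phosphatase that activates CDK1 against the kinase that inhibits it, was -3.53, -3.77, -3.97 and -3.93 in NPY1R high and -3.08, -3.18, -3.19 and -3.12 in NPY1R low. The groups did not overlap, and the ratio in NPY1R high was 0.634 of that in NPY1R low. CDC20 to FZR1, the mitotic and the G1 activator of the APC/C, was 2.73, 2.89, 2.89 and 2.25 in NPY1R high and 3.42, 3.49, 3.24 and 4.34 in NPY1R low, a difference of -0.93. NPY1R low replicate 4, where FZR1 was far below the other libraries, gave the highest value, and without it the difference was -0.69. MKI67 to FOXM1 differed by -0.20 with overlapping groups (-0.67 ± 0.13 against -0.47 ± 0.23, SD, n = 4 each), and its exact permutation p of 0.20 does not show that these 2 genes changed alike.

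**Figure D4:**
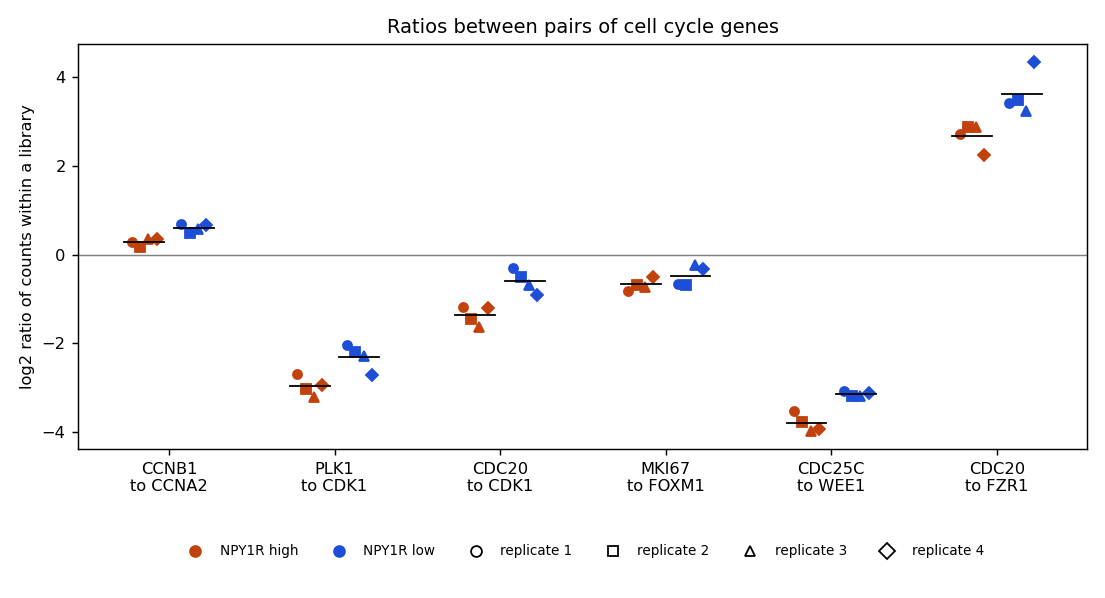
Each point is the log2 ratio of 2 genes' counts within 1 library, coloured by group and shaped by replicate number, with a black bar at the group mean. The groups do not overlap for CCNB1 to CCNA2, CDC20 to CDK1, CDC25C to WEE1 and CDC20 to FZR1, and they overlap for PLK1 to CDK1 and MKI67 to FOXM1.

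Genes known to be activated by FOXM1 in G2 and mitosis were lower together with it. Of a list of 15, 14 were lower and 1 higher in edgeR's quasi-likelihood test, where 7.81% of all tested genes were called lower. The median log2 difference of the list was -0.91, beside -0.03 over all tested genes. NEK2, a centrosomal kinase, had 48.4 ± 2.02 CPM in NPY1R low and 21.1 ± 2.03 in NPY1R high (SD, n = 4), and differed on the log2 scale by -1.20 (SE 0.08). BUB1, a spindle checkpoint kinase, had a difference of -1.0 (SE 0.07), the kinetochore protein CENPF -1.0 (SE 0.09) and the cytokinesis factor ECT2 -0.91 (SE 0.07). The exception was SKP2, a subunit of the ubiquitin ligase that degrades p27, which rose by 0.21 (SE 0.05, adjusted p 0.0289). SKP2 is named because it stood alone in the list, and its call was lost in 6 of 26 fits, among them those without NPY1R high replicate 1 or 2 or NPY1R low replicate 1 or 3, with adjusted p up to 0.0924. The replicate block (0.0543) and the GC offset (0.126) also ended it.

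Regulators of CDK1 and PLK1 were lower in part. Of 15 tested, 9 were lower and 0 higher in edgeR's quasi-likelihood test, beside 7.81% lower among all tested genes. The median log2 difference of the 15 was -0.42. With 1 library left out the count was 5 to 9, and 5 without NPY1R high replicate 4, where WEE1, CDC25B, CCNF and MASTL were no longer called. DESeq2 and limma-voom also called 0 higher, and 0 were higher at an unadjusted p under 0.05. TPX2, which activates AURKA on the spindle, had 314 ± 10.4 CPM in NPY1R low and 174 ± 22.3 in NPY1R high (SD, n = 4), and differed on the log2 scale by -0.85 (SE 0.08). BORA, the cofactor through which AURKA activates PLK1, differed by -0.58 (SE 0.09), and the CDK-binding subunits CKS2 and CKS1B by -0.52 (SE 0.06) and -0.49 (SE 0.08). The phosphatase CDC25B differed by -0.62 (SE 0.14), a call lost without NPY1R high replicate 4 (adjusted p 0.0608). The inhibitory kinase WEE1 was lower by a small amount, from 152 ± 4.31 to 127 ± 8.85 CPM (SD, n = 4 each; log2 difference -0.26, SE 0.06, adjusted p 0.0151). That call was lost without NPY1R high replicate 3 or 4 or NPY1R low replicate 1 or 4, with adjusted p up to 0.0783. CCNF, the gene of cyclin F, and MASTL, the Greatwall kinase that holds back a phosphatase opposing CDK1, were named for how their calls behaved after their values were seen. Their log2 differences were -0.63 (SE 0.15) and -0.25 (SE 0.06), and the calls were lost in 6 and 5 of the 8 fits with 1 library left out, with adjusted p up to 0.0842 and 0.0927. PKMYT1, the second inhibitory kinase, had 11.04 ± 4.32 and 14.8 ± 7.24 CPM in NPY1R high and NPY1R low (SD, n = 4 each), and CDKN1A, the gene of the CDK inhibitor p21, 9.39 ± 2.89 and 9.54 ± 1.27. Neither was called, with adjusted p of 0.566 and 0.971.

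Among 18 genes of the APC/C and its partners, 2 were lower and 0 higher, beside 7.81% lower among all tested genes. The median log2 difference of the 18 was -0.05. The unadjusted p was under 0.05 for 5 lower and 0 higher genes, and DESeq2 called 3 lower and limma-voom 2. The GC offset gave 3 lower, and 4 were lower with the GC offset and replicate block or with a model term that separates replicates 1 and 2 from 3 and 4 (replicate-set term). The 2 lower genes were the ubiquitin-conjugating enzyme gene UBE2C, at -0.67 (SE 0.10), and the subunit gene CDC27, at -0.32 (SE 0.05). UBE2S, which extends the ubiquitin chains, had 30.0 ± 6.73 CPM in NPY1R high and 49.8 ± 16.7 in NPY1R low (SD, n = 4 each), and its adjusted p was 0.0961. Without NPY1R low replicate 4 its log2 difference was -0.91 with an adjusted p of 0.00173, and without other libraries it stayed above the threshold. DESeq2, the GC offset with the replicate block and the replicate-set term also called it lower. The subunit ANAPC1 had -0.22 (adjusted p 0.0728), and was called without NPY1R low replicate 2 (adjusted p 0.0266), with the GC offset alone or with the replicate block, and with the replicate-set term (adjusted p from 0.00978). FZR1, the G1 activator, and FBXO5, an inhibitor of the complex, had log2 differences of -0.23 (SE 0.28) and -0.14 (SE 0.08) and were not called.

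Of 14 genes of the DREAM and MuvB complexes, 2 were lower and 0 higher, beside 7.81% lower among all tested genes. The median log2 difference of the 14 was -0.04. The unadjusted p was under 0.05 for 3 lower and 0 higher genes, and DESeq2 called 2 lower and limma-voom 1. The count of lower genes was 0 without NPY1R high replicate 3 or 4 or NPY1R low replicate 1, 2 or 3, 1 without NPY1R high replicate 2 or NPY1R low replicate 4, and 3 with the GC offset and replicate block or the replicate-set term. MYBL2, the B-MYB factor that joins MuvB ahead of FOXM1, had 39.1 ± 7.32 CPM in NPY1R high and 61.1 ± 14.1 in NPY1R low (SD, n = 4 each). Its libraries overlapped between groups, with a log2 difference of -0.64 (SE 0.18) and an adjusted p of 0.0445. LIN9, a MuvB subunit, differed by -0.36 (SE 0.10, adjusted p 0.0324). Leaving out 1 library ended the call of MYBL2 in 6 of 8 fits (not without NPY1R high replicate 1 or NPY1R low replicate 4) and that of LIN9 in 7 of 8 (not without NPY1R high replicate 1), with adjusted p up to 0.142 and 0.107. The replicate block also ended the call of LIN9 (0.0654). LIN54, the subunit that reads the CHR, had -0.27 (SE 0.09, adjusted p 0.076), and was called without NPY1R high replicate 2 (0.049), with the replicate block (0.043), with the block and GC offset (0.00877) and with the replicate-set term (0.0107). RBL2, the p130 pocket protein of DREAM, had 0.11 (SE 0.06) and MYBL1 0.26 (SE 0.12), with adjusted p of 0.324 and 0.228. MYBL1 was called without NPY1R high replicate 4 (0.0484).

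Genes of the G1 to S transition and of DNA replication were also examined. Of 21 tested, 0 were lower and 0 higher in edgeR's quasi-likelihood test, beside 7.81% lower and 5.78% higher among all tested genes. The median log2 difference of the 21 was -0.04. At an unadjusted p under 0.05, 1 was lower and 1 higher, and DESeq2 called 1 higher and limma-voom 0. The replicate block, alone or with the GC offset, gave 1 lower (RRM2) and 1 higher (UNG), and the replicate-set term gave 2 lower (RRM2 and MCM7, named after its value was seen) and 1 higher (UNG). CCNE2, the gene of cyclin E2, had 144 ± 25.0 CPM in NPY1R high and 137 ± 16.2 in NPY1R low (SD, n = 4 each). RRM2, a ribonucleotide reductase subunit whose RNA peaks in S phase, had a log2 difference of -0.30 (SE 0.13, adjusted p 0.16). RRM2 was called lower with the replicate block (0.0342), with the block and GC offset (0.00284) and with the replicate-set term (0.0134). SLBP had -0.14 (SE 0.06) and GINS2 -0.17 (SE 0.09). The uracil glycosylase gene UNG was at 0.36 (SE 0.11), with an adjusted p of 0.0603 and groups that did not overlap, and 19 of 26 other fits called it higher, 3 of them without NPY1R high replicate 3, NPY1R high replicate 4 or NPY1R low replicate 1. The difference between this list and the mitotic entry genes was not itself tested here.

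**Figure D5:**
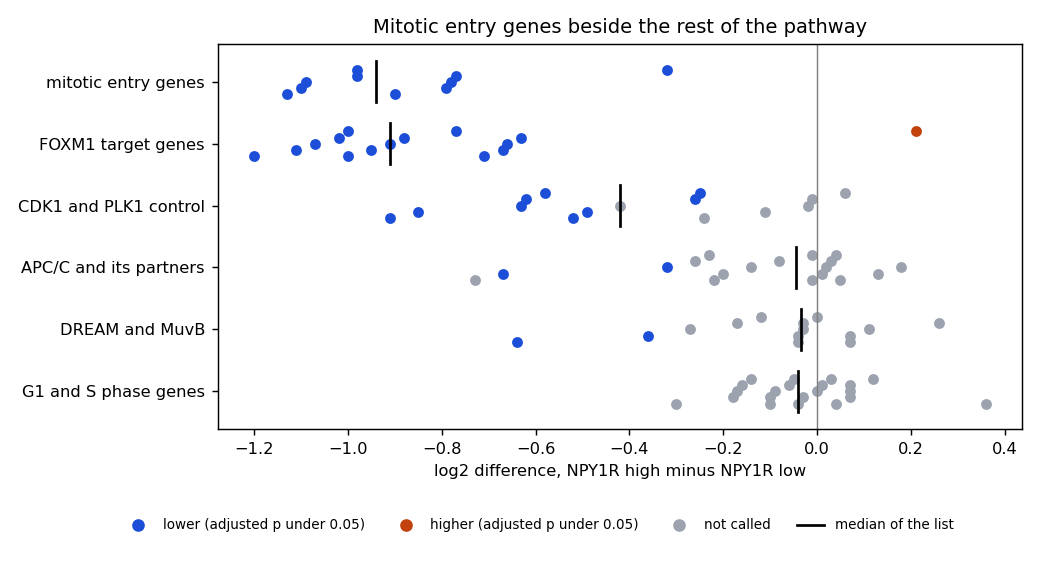
Each point is the log2 difference in level of 1 tested gene, NPY1R high minus NPY1R low, grouped by list and coloured by whether edgeR's quasi-likelihood test called it (adjusted p under 0.05), and the black line is the median of the list. The medians are -0.94 for the 10 mitotic entry genes and -0.91 for FOXM1 target genes, and lie between -0.05 and -0.04 for the APC/C, DREAM and MuvB, and G1 and S lists.

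Outside these lists, the genes whose levels over the 8 libraries ran most like the median of the 10 were SPAG5, KIF2C, DEPDC1, KIF18A, USP54 and ASPM. Likeness was the mean absolute distance of log2 CPM, each gene centred on its own mean, among 10341 genes with a mean of at least 5 CPM. The distance was 0.037 for SPAG5 and 0.066 for ASPM, against a median of 0.448 over those genes. Among the 10 themselves it ran from 0.055 for CDC25C to 0.295 for CDK1. The log2 differences of the 6 genes ran from -1.01 (SE 0.09) for ASPM to -0.80 (SE 0.08) for KIF18A, which follows from how they were picked.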

How the data were processed

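Per the submitters' processing notes, STAR 2.5.2, RSEM 1.3.0 and the build hg38 were used. The authors deposited expected counts per gene symbol, unscaled. The annotation is not given in the sources used here. Per the labels' protocols, libraries came from 200 ng of RNA with a stranded kit. The series table was used. The single-sample tables differed from it in 0 values. The chi-square between libraries of a group was at least 6.00 per degree of freedom, so none looked like a repeat run of the same library. It cannot tell separate cultures from separate libraries of the same RNA. Each library was counted as its own sample. Expected counts were rounded, because the design assumed whole counts. Genes were filtered with filterByExpr (minimum count 10), scaled by TMM, tested with edgeR 4.0.16 (R 4.3.3) without covariates and adjusted by Benjamini-Hochberg over all 14008 tested genes. The TMM reference was NPY1R low replicate 4. SE is the log2 difference over the root of the F statistic. Log2 CPM used a prior count of 2, and ratios added 0.5 to counts. Transcript GC and length came from GENCODE 29 (97.1% of tested genes). On simulated counts, the test found 168 of 200 genes given a log2 change of 1 (9 others were called) and 90 of 200 given 0.5. Alternatives were other scalings, TMM references, filters, DESeq2 1.42.0, limma-voom (limma 3.58.1), a replicate block, a term for replicates 1 and 2 against 3 and 4, a GC offset and leaving out each library. These made 26 other fits. Reading the main fit at an adjusted p under 0.01 brought the alternatives to 27. The genes, lists, ratios and alternatives were chosen with earlier results of these data known. Named genes were NPY1R, the 10 members, the up to 4 genes of each list with the smallest adjusted p, WEE1, PKMYT1, CDC25B, CDKN1A, FZR1, FBXO5, MYBL2, LIN54, RBL2 and CCNE2 whatever their p, and the 6 most alike genes. SKP2, CCNF, MASTL and MCM7 were named after their values were seen.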

Additional observations from a re-analysis of the deposited data

Results flagged for a closer look

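Among 104 sets of 4 libraries examined with Dixon's test (each named gene, each ratio and the median of the 10 genes, in each group), 5 held a library whose gap to the nearest other exceeded 0.829 of the range of its group, and chance alone gives about 5.2. None of the 10 mitotic entry genes and none of the 6 ratios was among them. FZR1 stood at 2.26 log2 CPM in NPY1R low replicate 4, below 3.42 to 3.59 in the other NPY1R low libraries (gap 0.87 of the range). CKS2 stood at 5.49 in NPY1R high replicate 2, below 5.67 to 5.70 (0.836). CDC27 was at 6.85 in NPY1R high replicate 3, above 6.70 to 6.72 (0.879). LIN54 was at 6.29 in NPY1R low replicate 2, above 6.15 to 6.17 (0.858), and SPAG5 at 7.67 in NPY1R low replicate 1, above 7.59 to 7.60 (0.855).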

How the results depend on the processing

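Over 27 alternatives, the 10 genes kept direction and call except for 21 losses of the CDK1 call. Genes called lower numbered 1810 with the GC offset and replicate block, 1681 with the term for replicates 1 and 2 against 3 and 4, 562 (470 higher) at an adjusted p under 0.01, and 625 to 1064 when each library was left out, fewest without NPY1R high replicate 4 and also 710 without NPY1R high replicate 3 and 678 without NPY1R low replicate 1. Of calls, 53.6% were higher at 1 CPM in 4 libraries and 53.2% without a filter. With each group's mean removed, same-numbered libraries correlated across genes at 0.339, 0.157, 0.0907 and 0.0178 for replicates 1 to 4. The main fit did not pair them, and whether they belong together was not tested. With the replicate block, 1028 genes were lower and 805 higher, and of the 10 genes CDK1 was not called. Sign flips within replicate numbers (replicate block) cannot go below p 0.125, so the ratio differences of -0.32 (CCNB1 to CCNA2 ratio), -0.77 (CDC20 to CDK1 ratio), -0.66 (CDC25C to WEE1 ratio) and -0.93 (CDC20 to FZR1 ratio) lost the threshold there. They also lost it without any 1 library, where the smallest p is 0.0571, at -0.35 to -0.28, -0.87 to -0.66, -0.75 to -0.60 and -1.06 to -0.69. The PLK1 to CDK1 ratio passed with the GC offset (-0.62). CDKN1A, never called, changed sign with DESeq2, median-of-ratios factors and 5 TMM references (0.01), with both other filters, the GC offset and 2 references (0.02), with library totals and upper-quartile factors (0.03), and when libraries were left out (-0.21 to 0.14). CCNE2 changed sign without NPY1R high replicate 2 (-0.02 to 0.21). Of the 10 genes, CDC25C had the fewest counts, with 137 in its smallest library.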
